A study of Mus musculus with 6 samples.

Results

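The genes described here are 6 factors that decide how long inflammatory mRNAs last in a cell. They are Zfp36, Zfp36l1, Zfp36l2, Zc3h12a, Noct and Elavl1, chosen by name, and all 6 are among the 18429 genes of the count matrix. Macrophages grown from mouse bone marrow in medium with L929-conditioned supernatant were either wild-type or Rad21-/-. In the latter the gene of a core subunit of cohesin, the ring complex that folds chromosomes into loops, was deleted. The authors reported that most, but not all, of the alleles and of the protein were lost. Both genotypes carried creERT2 on both Rosa26 alleles, which puts Cre in the whole body under control of 4-hydroxytamoxifen, and both received 200 nM of that drug 96 h after plating, so drug and Cre are common to all 6 groups and deletion took place in culture. On day 7 cells were left untreated or were given 10 ng/ml of LPS, the bacterial cell wall component sensed by TLR4, for 2 or 8 h, and single cells were sorted into multi-well plates for MARS-seq, a method that counts the 3' ends of transcripts by unique molecular identifiers (UMIs). Each genotype and time point is 1 sample, so no difference had a replicate check and no test was run. Every interval below is a 95% interval of counting error only.

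Many cytokine mRNAs carry AU-rich elements and stem-loops that mark them for quick destruction. Zfp36 encodes tristetraprolin, which binds AU-rich elements and brings in the CCR4-NOT deadenylase that removes the poly(A) tail; Zfp36l1 and Zfp36l2 encode close relatives with the same zinc fingers. Zc3h12a encodes Regnase-1, an endonuclease that cuts stem-loops in mRNAs such as Il6. Noct encodes nocturnin, a circadian protein of the deadenylase family, and Elavl1 encodes HuR, which binds AU-rich sequence and protects it. In activated macrophages the p38 kinase and its partner MK2 phosphorylate tristetraprolin and hold back its activity, and the phosphatase Dusp1 switches p38 off again.

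In the RefSeq annotation of GRCm38.p6, Zfp36 lies on chromosome 7 at 28376784 to 28379228, Zc3h12a on chromosome 4 at 125118414 to 125127881, Noct on chromosome 3 at 51224447 to 51251654, Zfp36l1 on chromosome 12 at 80107760 to 80113013, Zfp36l2 on chromosome 17 at 84183924 to 84187947 and Elavl1 on chromosome 8 at 4284781 to 4325140. A promoter window, 250 bases before the start of the gene and 50 after it, was held for 5 of the 6 genes. That of Elavl1, chr8:4325051-4325350 on the minus strand, was set on another start than the position 4325140 given above. The windows of Zfp36, Zc3h12a and Noct are shown because these genes had the largest ratios over untreated cells at 2 h of LPS. They are written 5′ to 3′ on the strand of the gene, with the CArG box and then the GAS motif of Zfp36 in capitals. Their positions are chr7:28379179-28379478 on the minus strand, chr4:125127832-125128131 on the minus strand and chr3:51224197-51224496 on the plus strand.
Zfp36: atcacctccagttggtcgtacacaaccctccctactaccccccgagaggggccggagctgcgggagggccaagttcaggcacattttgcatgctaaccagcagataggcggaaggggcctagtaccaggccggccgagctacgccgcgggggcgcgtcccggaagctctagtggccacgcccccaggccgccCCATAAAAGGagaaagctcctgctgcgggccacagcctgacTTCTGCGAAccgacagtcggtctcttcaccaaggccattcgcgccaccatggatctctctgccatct
Zc3h12a: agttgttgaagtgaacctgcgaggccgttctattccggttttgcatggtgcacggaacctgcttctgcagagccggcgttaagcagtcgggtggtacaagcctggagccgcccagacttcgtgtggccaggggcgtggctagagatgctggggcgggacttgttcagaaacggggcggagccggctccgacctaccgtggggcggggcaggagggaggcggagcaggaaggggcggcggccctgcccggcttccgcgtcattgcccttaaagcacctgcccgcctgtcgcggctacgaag
Noct: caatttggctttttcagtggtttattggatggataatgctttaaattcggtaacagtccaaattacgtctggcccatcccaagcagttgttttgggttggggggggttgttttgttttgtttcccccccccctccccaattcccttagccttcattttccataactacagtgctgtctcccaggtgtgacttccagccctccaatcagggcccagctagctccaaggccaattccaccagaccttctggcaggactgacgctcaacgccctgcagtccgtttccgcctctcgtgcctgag
Both strands were searched for a kappaB site, a CArG box (the serum response element core), CRE (TGACGTCA), AP-1 (TGANTCA) and GAS (TTCNNNGAA, bound by STATs). The CArG box of Zfp36 began 58 bases before the gene start and its GAS match 17 bases before it, and the matches did not overlap. A CArG box was found in 1.63% of 32851 windows of this length and a GAS match in 8.30%. The windows of Zc3h12a, Noct and Elavl1 held none of these letters, and that of Zfp36l1 held AP-1 once, upstream of its start, a motif seen in 7.81% of windows. A kappaB site was present in 4.51% of windows and CRE in 1.79%, and neither was found in those of the 5 genes. A match describes letters and not a bound site, and the absence of a match says nothing of the factor elsewhere.

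The 6 samples held 1362 cells and 1417409 to 2195921 UMIs, with a median of 5577 to 7055.5 UMIs per cell. A set of 17 wells exceeded 25000 UMIs, and 5 of them held 45.5% of the UMIs of the wild-type 2 h sample, so levels are means of UMI counts scaled to the depth of each cell (CPM) over cells, in which each cell has equal weight. Cells came from 24 library pools, each of 1 time point, and 23 of them held both genotypes. Pool and time therefore cannot be told apart, whereas genotypes can be set side by side within pools. Rad21 itself was lower in Rad21-/- cells by 3.5 (2.57 to 4.42) on the log2 scale without LPS and by 2.52 (1.57 to 3.47) at 2 h, and its log2 ratio at 8 h was -1.94 (-2.94 to -0.94) with 73 UMIs in all. All 8 macrophage markers were detected, and their summed level was 7745 to 10365 CPM in wild-type and 6164 to 6855 CPM in Rad21-/- samples, which did not overlap. Without LPS Lyz2 was at 6410 CPM in wild-type and 3365 CPM in Rad21-/- cells, and Cd14 at 638 and 135 CPM. Adgre1 was also lower in Rad21-/- cells without LPS. Itgam, Fcgr1 and Mertk had lower means there too, but with overlapping counting intervals. Cd68 and Csf1r went the other way, at 1303 and 1674 CPM and at 294 and 457 CPM. At 8 h Adgre1 was at 308 CPM in wild-type and 493 CPM in Rad21-/- cells, Cd68 at 792 and 1371 CPM and Csf1r at 130 and 306 CPM. Itgam was at 238 and 246 CPM, and Lyz2, Cd14, Fcgr1 and Mertk had lower means in Rad21-/- cells at that time. The sum therefore does not describe each marker. The summed level of 2 B cell markers was 23.9 to 49 CPM in wild-type samples and 170 to 181 CPM in Rad21-/- samples. Most of this was Ighm, at 11.8 to 40.2 CPM in wild-type and 159 to 176 CPM in Rad21-/- samples. The part of either marker list in the differences between genotypes was not tested. The summed levels of neutrophil, dendritic cell, T cell, mast cell and fibroblast markers stayed at or below 69.8 CPM in every sample, but rest on 2 of 6, 2 of 5, 1 of 5, 2 of 4 and 3 of 4 listed markers, and the T cell value on Cd3g alone. Erythroid markers were not analysed here.

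Zfp36 was switched on by LPS in both genotypes, and its level at 8 h was the point at which the genotypes stood farthest apart. In wild-type cells its mean was 38.8 CPM (28.6 to 53) without LPS, 502 CPM (461 to 548) at 2 h and 352 CPM (322 to 386) at 8 h. The means of Rad21-/- cells were 21.8 CPM (14.9 to 32.4), 313 CPM (278 to 351) and 76.9 CPM (63.6 to 93.8). The order of the levels ran from wild-type 2 h through wild-type 8 h, Rad21-/- 2 h and Rad21-/- 8 h to the untreated samples. Counting intervals overlapped for the neighbours wild-type 8 h and Rad21-/- 2 h and for both untreated samples, and for no other neighbours. The share of cells with at least 1 UMI of Zfp36 was 18.4%, 91.4% and 77.4% for wild-type cells, in the same order of times, as against 12.2%, 71.0% and 37.5% for Rad21-/- cells. At 2 h nearly every wild-type cell thus had the transcript, while at 8 h most Rad21-/- cells had none detected.

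**Figure D1:**
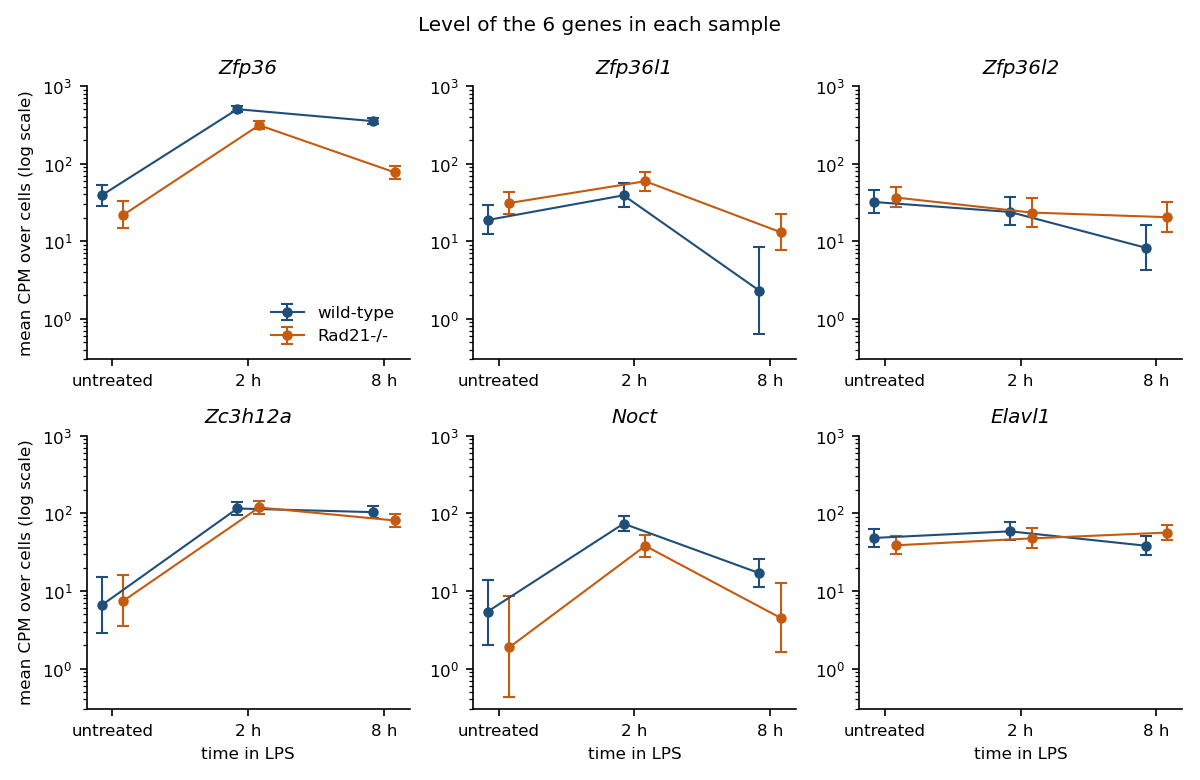
Mean CPM over cells (log axis) of each of the 6 genes against time in LPS, in wild-type (blue) and Rad21-/- cells (orange), with bars for 95% counting intervals and 1 sample per point. Zfp36 stood at 352 CPM in wild-type and 76.9 CPM in Rad21-/- cells at 8 h, while the lines of Zc3h12a ran close together.

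Zc3h12a had much the same course in both genotypes. Its mean was 6.53 CPM (2.85 to 15) in untreated wild-type cells, 115.7 CPM (95.3 to 141) at 2 h and 104 CPM (87.8 to 122.9) at 8 h. Rad21-/- cells had means of 7.44 CPM (3.53 to 15.8), 119 CPM (98.5 to 144) and 81 CPM (66.6 to 99.3). The 4 LPS samples stood above both untreated ones, and their intervals overlapped from each sample to the next in the order. The transcript was found in 3.35%, 49.5% and 40.9% of wild-type cells and 4.81%, 47.8% and 43.3% of Rad21-/- cells.

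Noct was highest at 2 h of LPS in both genotypes. Its mean was 5.43 CPM (2.02 to 13.8), 73.7 CPM (58.8 to 93.1) and 17 CPM (11.3 to 26.1) in wild-type cells without LPS, at 2 h and at 8 h. For Rad21-/- cells it was 1.88 CPM (0.43 to 8.60), 38.1 CPM (27.6 to 53.2) and 4.46 CPM (1.61 to 12.6). The 2 h samples were highest in each genotype and did not overlap each other, and the untreated samples and Rad21-/- 8 h overlapped in the order of levels. Positive cells made up 2.09%, 33.9% and 11.7% of wild-type cells, as against 1.85%, 22.0% and 3.57% of Rad21-/- cells.

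The relatives of tristetraprolin were measured on fewer UMIs. Zfp36l1 was at 18.7 CPM (12.3 to 29.3), 39.0 CPM (27.5 to 55.5) and 2.30 CPM (0.64 to 8.39) in wild-type cells and at 31.0 CPM (22.6 to 43.2), 59.2 CPM (44.8 to 78.2) and 13.0 CPM (7.77 to 22.6) in Rad21-/- cells. In both genotypes it was highest at 2 h and lowest at 8 h, and in each step of the order neighbouring samples overlapped. Only 5 of 257 wild-type cells, or 1.95% (0.64 to 4.48), had it at 8 h. Zfp36l2 was at 32.0 CPM (22.8 to 45.1), 23.8 CPM (15.9 to 36.6) and 8.22 CPM (4.21 to 16.1) in wild-type and at 36.5 CPM (27.3 to 49.4), 23.4 CPM (15.3 to 36.1) and 20.3 CPM (13.0 to 32.2) in Rad21-/- cells. Its highest values were in untreated cells and its lowest in wild-type cells at 8 h, with every neighbour overlapping the next.

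Elavl1, the stabiliser, was the flattest of the 6. Its means were 48.3 CPM (37.1 to 63.2), 58.8 CPM (45.4 to 76.7) and 38.3 CPM (28.8 to 51.3) in wild-type cells and 38.8 CPM (29.9 to 51.3), 47.6 CPM (35.5 to 64.3) and 56.7 CPM (45.5 to 71.6) in Rad21-/- cells. Each sample overlapped its neighbour in the order, which ran from wild-type 2 h to wild-type 8 h.

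How the 6 genes answered LPS was described as the log2 ratio of mean CPM, with the value of 1 UMI added on each side, and a gene counted as higher or lower when this ratio reached 2-fold and the gene had at least 100 UMIs over both samples. Comparisons share samples, since untreated cells serve for both times. In wild-type cells at 2 h all 6 genes had enough UMIs, and 4 of them were higher, where 4.05% of 6915 genes were. None was lower, where 2.33% of all genes were. Zc3h12a had a log2 ratio of 4.01 (3.08 to 4.95), Zfp36 of 3.67 (3.25 to 4.09) and Noct of 3.60 (2.54 to 4.66), which are 16.1-fold, 12.7-fold and 12.1-fold. Only 33, 40 and 43 of all genes tested had a higher ratio than Zc3h12a, Zfp36 and Noct. Zfp36l1 was just past the limit at 1.02 (0.32 to 1.72), and 65.8% of its UMIs in wild-type cells at 2 h lay in wells above 25000 UMIs. It lay below 2-fold after thinning each cell to 3800 UMIs, at 0.65, or to 5500 UMIs, at 0.23, and without any 1 of 7 of the 16 pools, at 0.58 without the pool in which its wild-type level was highest at 2 h, 75.7 CPM. Zfp36l2 had a ratio of -0.43 (-1.10 to 0.25) and Elavl1 of 0.27 (-0.22 to 0.77). In mean UMIs per cell, where deep wells weigh most, Zfp36l2 turned to 1.24 and Elavl1 stood at 1.27, so that all 6 genes were past 2-fold, and in summed UMIs Zfp36l2 was at 0.30. Zfp36, Zfp36l1, Zc3h12a and Noct reached 100 UMIs through the 2 h sample, since each had fewer in untreated cells. The direction of these 4 calls was thus set by the minimum.

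In Rad21-/- cells at 2 h, 5 of the 6 genes reached 100 UMIs, 2 were higher and none was lower, where 3.48% and 1.05% of 5609 genes were. Zfp36 had a log2 ratio of 3.81 (3.30 to 4.32) and Zc3h12a of 3.91 (3.03 to 4.79). Both reached 100 UMIs through the 2 h sample, with 42 and 13 UMIs in untreated cells, so the direction of their calls was set by the minimum. Noct, with 64 UMIs, fell short of the minimum and had a ratio of 4.00 (2.71 to 5.28). Zfp36l1 was at 0.92 (0.36 to 1.48), Zfp36l2 at -0.62 (-1.28 to 0.03) and Elavl1 at 0.30 (-0.23 to 0.82). The ratio of Zfp36l1 ranged from 0.30, after thinning to 5500 UMIs, to 1.26, and leaving out any 1 of 5 of its 15 pools put it past 2-fold. Its thinned share of positive cells differed by 5.32 points (-1.14 to 12.4). The difference in the log2 ratio at 2 h between Rad21-/- and wild-type cells was 0.14 (-0.52 to 0.80) for Zfp36, -0.10 (-1.39 to 1.18) for Zc3h12a and 0.39 (-1.27 to 2.06) for Noct. The folds over untreated cells at 2 h were thus not distinguishable between genotypes at this depth, even where the levels were.

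At 8 h against untreated cells, 3 genes had enough UMIs in wild-type cells and 4 in Rad21-/- cells. In both genotypes Zfp36 and Zc3h12a were higher and none was lower. Of all genes 9.30% were higher and 12.3% lower in wild-type cells, and 7.34% and 4.82% in Rad21-/- cells. Zfp36 and Zc3h12a had 56 and 9 UMIs in untreated wild-type and 42 and 13 in untreated Rad21-/- cells. They reached the minimum through the 8 h samples, so the direction of these calls was set by the minimum. In wild-type cells Zfp36l1 and Zfp36l2 had too few UMIs to be called lower. Zfp36 had a log2 ratio of 3.16 (2.74 to 3.58) in wild-type cells but of 1.79 (1.25 to 2.34) in Rad21-/- cells. Zc3h12a had ratios of 3.86 (2.93 to 4.78) and 3.35 (2.47 to 4.23). Members below the minimum had to be described by their values alone. In wild-type cells Zfp36l1, with 36 UMIs, was at -2.77 (-4.02 to -1.53), Zfp36l2, with 58 UMIs, at -1.90 (-2.79 to -1.01) and Noct, with 44 UMIs, at 1.52 (0.38 to 2.66). In Rad21-/- cells Zfp36l1, with 77 UMIs, was at -1.23 (-1.99 to -0.48) and Noct, with 16 UMIs, at 1.02 (-0.59 to 2.63). Zfp36l2 in Rad21-/- cells was at -0.83 (-1.52 to -0.14). Elavl1 was at -0.33 (-0.85 to 0.19) in wild-type and at 0.54 (0.08 to 1.00) in Rad21-/- cells. The median of all genes tested was -0.17 in wild-type and -0.00 in Rad21-/- cells.

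From 2 h to 8 h all 6 genes had ratios below 0 in wild-type cells, and 5 of 6 had in Rad21-/- cells, but they differed in size, and that of Zc3h12a in wild-type cells turned to 0.04 under median-of-ratios scaling. In wild-type cells 5 of them had enough UMIs, Zfp36l1 and Noct were lower, and none was higher, where 9.75% of 6988 genes were lower and 6.88% higher. Zfp36l1 and Noct had 7 and 37 UMIs in wild-type cells at 8 h and reached the minimum through the 2 h sample, which set the direction of their calls. Of the 6 genes 4 had enough UMIs in Rad21-/- cells, Zfp36 and Zfp36l1 were lower, and none was higher, where 4.25% of 6111 genes were lower and 5.66% higher. Zfp36l1 had 82 UMIs at 2 h and 22 at 8 h in Rad21-/- cells. It thus reached the minimum mainly through the 2 h sample, which set the direction of its call. Zfp36 had a log2 ratio of -0.51 (-0.69 to -0.34) in wild-type and of -2.02 (-2.32 to -1.71) in Rad21-/- cells, with 48 genes tested at a lower ratio in the latter. The difference of -1.51 (-1.86 to -1.15) between the genotypes was beyond counting error but could not be tested against replicates. Noct had ratios of -2.08 (-2.69 to -1.48) and, with 70 UMIs, -2.98 (-4.11 to -1.84). Zfp36l1 had ratios of -3.79 (-5.01 to -2.58) and -2.15 (-2.89 to -1.42), a difference of 1.64 (0.22 to 3.06). Zfp36l2, with fewer than 100 UMIs in both, was at -1.47 (-2.40 to -0.54) and -0.21 (-0.99 to 0.57). Zc3h12a was at -0.16 (-0.51 to 0.20) and -0.56 (-0.93 to -0.18), a difference of -0.40 (-0.92 to 0.11). Elavl1 was at -0.61 (-1.12 to -0.09) and 0.24 (-0.25 to 0.73).

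Set directly against wild-type cells, Rad21-/- cells had less Zfp36 at 8 h, the only one of the 6 genes to pass the limit in any comparison of the genotypes. Without LPS 2 of the 6 genes had enough UMIs and none was called, where 1.29% of 5804 genes were higher and 3.70% lower. At 2 h all 6 had enough UMIs and none was called, where 2.37% of 6720 genes were higher and 4.91% lower. At 8 h 3 had enough UMIs, none was higher and 1, Zfp36, was lower, where 5.89% of 6354 genes were higher and 5.56% lower.

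The log2 ratio of Zfp36, Rad21-/- over wild-type, was -0.82 (-1.45 to -0.20) without LPS, with 98 UMIs, -0.68 (-0.89 to -0.48) at 2 h and -2.19 (-2.48 to -1.90) at 8 h, a 4.56-fold lower level. At 8 h only 72 of 6354 genes had a lower ratio, and the median of all genes was 0.19. Noct was at -1.33 (-2.91 to 0.25) with 12 UMIs, at -0.93 (-1.45 to -0.41), and at -1.83 (-3.0 to -0.65) with 48 UMIs. It was thus below wild-type beyond counting error at both LPS times, although not past the limit where it could be called. Its ratio at 2 h passed 2-fold when UMIs were summed over cells, at -1.17, and without the pool with the highest Rad21-/- level among pools of at least 10 cells, 50.4 CPM, at -1.21. Zc3h12a was at 0.15 (-1.08 to 1.38) with 22 UMIs, 0.05 (-0.33 to 0.42) and -0.36 (-0.71 to -0.00). Its ratios at no LPS and at 2 h changed direction among the alternatives tried, and that at 8 h was 0.01 in mean UMIs per cell.

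Zfp36l1 was at 0.70 (0.03 to 1.38) with 84 UMIs, at 0.60 (0.01 to 1.19), and at 2.24 (0.95 to 3.54) with 29 UMIs. The ratio at 2 h was 1.13 without the pool in which its wild-type level was highest and -0.47 in mean UMIs per cell. Zfp36l2 was at 0.18 (-0.40 to 0.77), -0.01 (-0.75 to 0.73) and, with 57 UMIs, 1.25 (0.29 to 2.21). Its ratios without LPS and at 2 h changed direction among the alternatives. Elavl1 was at -0.31 (-0.81 to 0.18), -0.29 (-0.81 to 0.23) and 0.56 (0.07 to 1.04). Neither relative had enough UMIs to be called at 8 h. Over the alternatives the ratio of Zfp36l1 at 8 h ran from 1.34 to 2.80 and that of Zfp36l2 from 0.44 to 1.75. The thinned share of positive cells differed by 2.08 points (-0.69 to 5.48) for Zfp36l1 and by 4.32 points (0.08 to 9.03) for Zfp36l2.

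**Figure D2:**
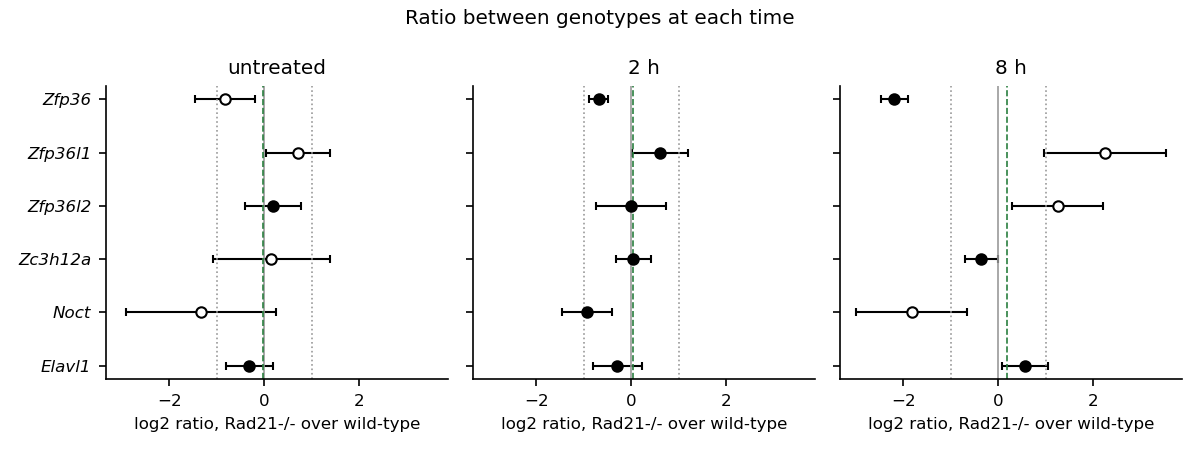
Log2 ratio of mean CPM, Rad21-/- over wild-type, of the 6 genes at each time, with 95% counting intervals. Filled points had at least 100 UMIs over both samples and open points had fewer, dotted lines mark 2-fold, and the dashed green line is the median of all genes tested; Zfp36 at 8 h, at -2.19, is the only filled point past 2-fold.

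Where a library pool held both genotypes with 10 or more cells each, the difference in Zfp36 had the same direction nearly throughout. Its share of positive cells was lower in Rad21-/- cells in 7 of 8 pools without LPS, in 4 of 4 at 2 h and in 6 of 6 at 8 h. At 8 h the pools ranged from 65.9% to 90.9% in wild-type and from 28.3% to 82.4% in Rad21-/- cells, while mean CPM, at 279 to 450 and 34.9 to 168, did not overlap. Leaving out any single pool kept the log2 ratio at 8 h between -2.32 and -2.10. The share of Noct-positive cells was lower in 4 of 4 pools at 2 h and in 6 of 6 at 8 h. Elavl1 went the other way at 8 h, with a higher share in 6 of 6 pools. Zc3h12a was lower in 3 of 4 pools at 2 h and in 3 of 6 at 8 h. Zfp36l1 and Zfp36l2 had higher shares in 4 and 5 of 6 pools at 8 h. Pools are parts of 1 sample per genotype and are not replicates.

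**Figure D3:**
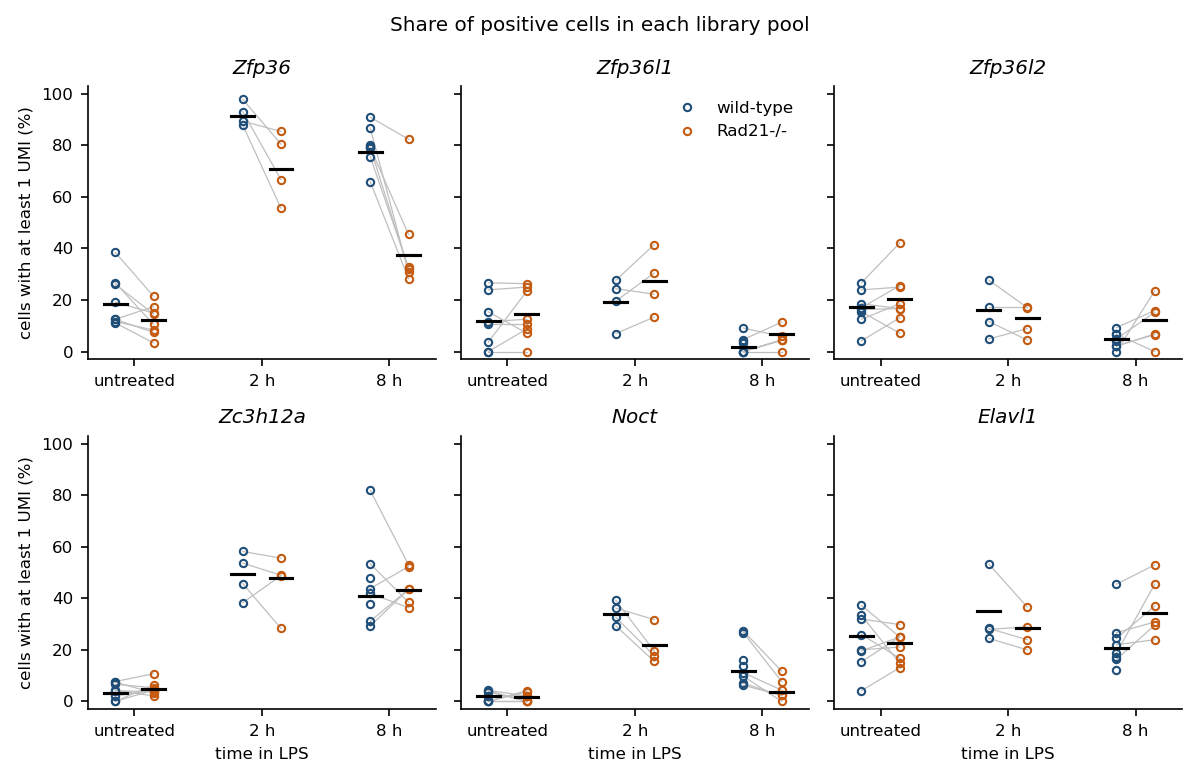
Share of cells (%) with at least 1 UMI of each gene in each library pool of at least 10 cells, at each time, with grey lines joining the genotypes of a pool and black bars at the share of the whole sample. The Zfp36 share was lower in Rad21-/- cells in 6 of 6 pools at 8 h, and that of Elavl1 was higher in 6 of 6.

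Depth differed between cells, so every cell with at least 3800 UMIs was thinned to that number. The share of Zfp36-positive cells then stood at 9.90% without LPS, 79.4% at 2 h and 64.5% at 8 h in wild-type cells, and at 8.52%, 53.9% and 23.2% in Rad21-/- cells. The difference between genotypes was -25.5 points (-35.1 to -15.2) at 2 h and -41.3 points (-49.3 to -32.4) at 8 h, against -20.4 (-28.0 to -12.6) and -39.9 (-47.6 to -31.4) before thinning. Cells with 3 or more thinned UMIs of Zfp36 made up 29.7% of wild-type and 11.7% of Rad21-/- cells at 2 h, and 16.7% and 2.46% at 8 h. The lower mean thus came with more empty cells and with fewer cells at the high end. For Noct the thinned difference was -11.0 points (-19.8 to -1.95) at 2 h and -6.86 (-11.3 to -2.82) at 8 h. For Zc3h12a it was -0.30 points (-10.4 to 9.89) and -1.31 (-9.76 to 7.26). That of Elavl1 at 8 h was 13.8 points (5.77 to 21.6) before thinning and 7.37 (0.53 to 14.3) after it, and the Rad21-/- sample at 8 h had the highest median depth.

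**Figure D4:**
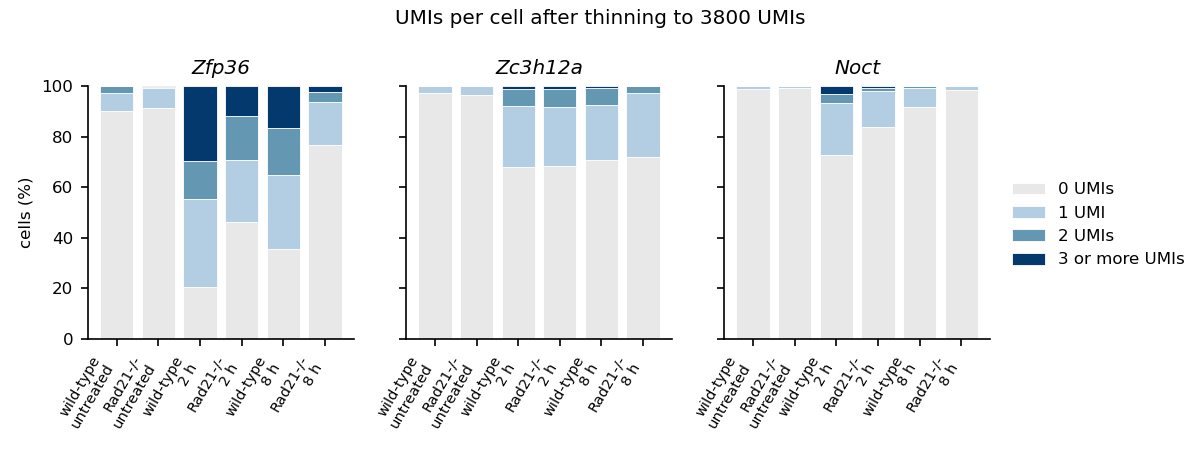
Share of cells (%) with 0, 1, 2 or 3 and more UMIs of Zfp36, Zc3h12a and Noct after thinning to 3800 UMIs, as stacked bars for the 6 samples. Cells without a Zfp36 UMI made up 35.5% of wild-type and 76.8% of Rad21-/- cells at 8 h, and the bars of Zc3h12a differed little between genotypes.

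At this thinned depth 3 or more of the 6 transcripts were found in 22.4% of wild-type and 14.9% of Rad21-/- cells at 2 h. No other sample had more than 4.39% of such cells. The mean number of the 6 genes detected per cell was 0.49, 1.76 and 1.18 for wild-type cells and 0.48, 1.43 and 0.82 for Rad21-/- cells. Cells with none of them fell from 59.4% without LPS to 7.88% at 2 h and stood at 18% at 8 h in wild-type cells, and at 58.3%, 18.8% and 38.4% in Rad21-/- cells. Zc3h12a was found in 33.6% (25.6 to 42.4) of Zfp36-positive and 26.5% (12.9 to 44.4) of Zfp36-negative wild-type cells at 2 h, and in 27.9% (20.8 to 35.9) and 32.1% (22.2 to 43.4) at 8 h. In Rad21-/- cells these shares were 27.7% (18.4 to 38.6) and 36.6% (25.5 to 48.9) at 2 h and 21.3% (10.7 to 35.7) and 30.1% (23.1 to 38) at 8 h. The intervals overlapped in all 4 samples and are wide, so a link of moderate size could have been missed. Whether the transcripts of both genes were linked in a cell was not tested.

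The machinery that these factors call on was followed through lists of genes. The lists of deadenylases, decapping and 5' to 3' decay factors, exosome and Ski subunits, and other RNA-binding regulators of stability hold 68 genes, 65 of them in the matrix. In wild-type cells at 2 h, 34 had enough UMIs, 4 were higher and 1 was lower, where 4.05% and 2.33% of all genes were, and their median log2 ratio was -0.07 against -0.09 for all genes. At 8 h 3 were higher and 1 was lower of 25, where 9.30% and 12.3% of all genes were. In Rad21-/- cells 3 were higher and none lower of 25 at 2 h, where 3.48% and 1.05% of all genes were, and 2 were higher and none lower of 35 at 8 h, where 7.34% and 4.82% were. In these comparisons with untreated cells a gene could reach the minimum through the LPS sample, which sets the direction of its call. Between genotypes none of 25 and none of 32 was called without LPS and at 2 h, and at 8 h 1 of 30 was lower, where 5.56% of all genes were.

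Zc3h12c, a relative of Regnase-1, had a log2 ratio at 2 h of 2.99 (2.36 to 3.61) in wild-type and 3.02 (2.42 to 3.61) in Rad21-/- cells. Btg1 and Btg2, antiproliferative proteins that bind the CCR4-NOT complex, were at 1.86 (1.56 to 2.16) and 1.31 (0.75 to 1.86) in wild-type and at 1.05 (0.73 to 1.36) and 1.07 (0.54 to 1.61) in Rad21-/- cells. Both were lower again at 8 h than at 2 h in each genotype. Patl1, a decapping activator, was at 1.19 (0.66 to 1.71) at 2 h in wild-type cells, and Exosc1, an exosome subunit, at -1.04 (-1.82 to -0.25). At 8 h in wild-type cells the decapping enzyme Dcp2 was at 1.27 (0.66 to 1.89), N4bp1, another endonuclease, at 1.04 (0.73 to 1.34), Zc3h12c at 1.66 (1.01 to 2.32) and Tob2, a CCR4-NOT adaptor, at -1.37 (-1.99 to -0.75). In Rad21-/- cells at 8 h Zc3h12c was at 2.33 and the deadenylase Cnot7 at 1.23. Untreated wild-type cells held 41 UMIs of Btg2 and 33 of Dcp2, and untreated Rad21-/- cells held 54 of Btg2 and 28 of Cnot7. Zc3h12c had a lower mean CPM than Btg2 in both untreated samples. The direction of the calls of these 4 genes against untreated cells was thus set by the minimum. Btg1 had 134 UMIs in untreated wild-type and 181 in untreated Rad21-/- cells, enough for a call either way. Arid5a, which stabilises Il6 mRNA, had a ratio between genotypes at 8 h of -1.03 (-1.72 to -0.35), at 37.9 CPM in wild-type and 18.3 CPM in Rad21-/- cells. From 2 h to 8 h Arid5a was at 1.59 in wild-type cells and Patl1 at -1.62, Tob2 at -1.18 and Zc3h12c at -1.33; in Rad21-/- cells Patl1 was at -1.02 and Tial1 at 1.01.

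**Figure D5:**
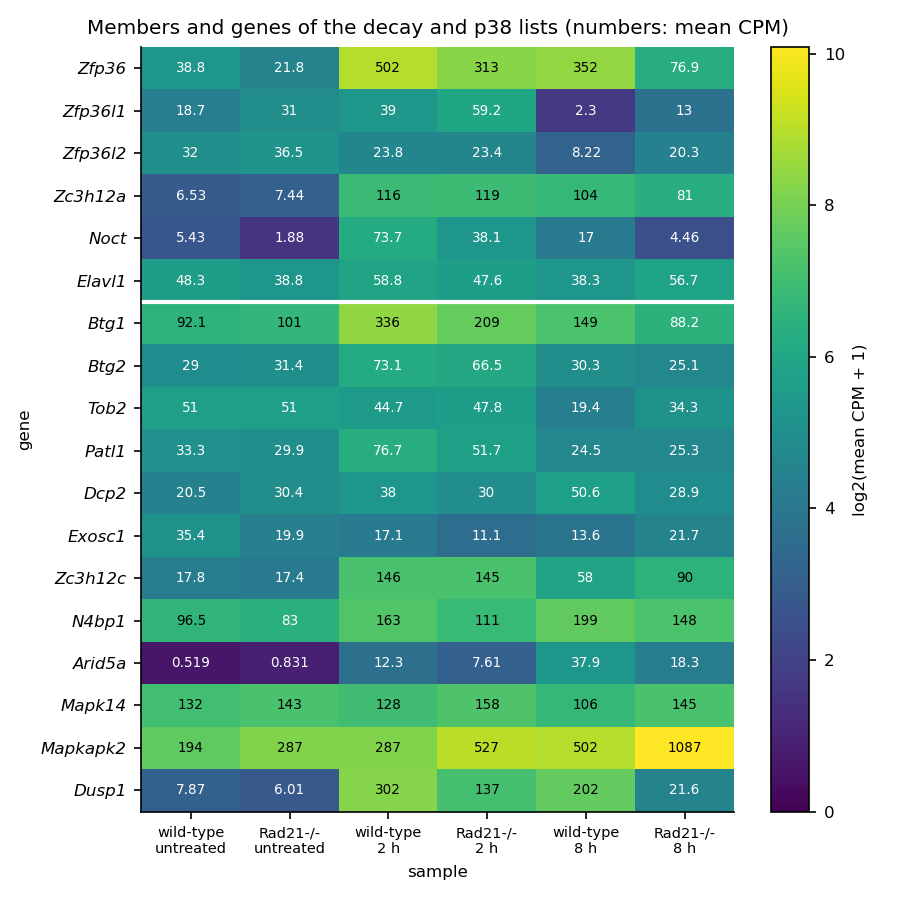
Mean CPM of the 6 genes (top) and of genes of the decay and p38 lists (bottom) in the 6 samples, with the color giving log2(mean CPM + 1); values compare 1 gene across samples and not genes with each other. Dusp1 went from 7.87 CPM to 302 CPM at 2 h and 202 CPM at 8 h in wild-type cells, and from 6.01 CPM to 136.6 CPM and 21.6 CPM in Rad21-/- cells.

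Upstream of tristetraprolin, Mapkapk2 and Dusp1 differed between genotypes in opposite directions. The p38 list holds 8 genes, 7 of them in the matrix. It had 1 higher of 5 at 2 h and 2 higher of 5 at 8 h in wild-type cells, where 4.05% and 9.30% of all genes were. In Rad21-/- cells it had 1 higher of 5 and 1 higher of 4, where 3.48% and 7.34% were. None was lower in these comparisons, where 2.33%, 12.3%, 1.05% and 4.82% of all genes were. Dusp1 was called higher at both times in wild-type cells and at 2 h in Rad21-/- cells. It reached the minimum through the LPS samples, which set the direction of these calls. Between genotypes none of 4 was called without LPS and 1 of 5 was lower at 2 h. At 8 h 1 of 5 was higher and 1 lower. The latter, Dusp1, reached the minimum at 8 h through the wild-type sample. Of all genes 3.70%, 4.91% and 5.56% were lower at the 3 times, and 1.29%, 2.37% and 5.89% higher. Dusp1, the phosphatase of p38, was at 7.87, 302 and 202 CPM in wild-type cells and at 6.01, 136.6 and 21.6 CPM in Rad21-/- cells. Its log2 ratio, Rad21-/- over wild-type, was -1.14 (-1.43 to -0.85) at 2 h and -3.20 (-3.70 to -2.70) at 8 h. From 2 h to 8 h it was at -0.58 in wild-type and at -2.64 in Rad21-/- cells, a difference of -2.06 (-2.63 to -1.48). Mapkapk2, which encodes MK2, was at 194, 287 and 502 CPM in wild-type and at 287, 527 and 1087 CPM in Rad21-/- cells. Its ratio between genotypes was 0.56 (0.33 to 0.79), 0.88 (0.67 to 1.08) and 1.11 (0.99 to 1.24) at the 3 times. Mapk14, which encodes p38 alpha, stayed between 105.7 and 158 CPM in all samples. Its ratio between genotypes was 0.12 (-0.17 to 0.41), 0.31 (-0.01 to 0.63) and 0.46 (0.16 to 0.75). Map2k3, a kinase of p38, was lower at 8 h than at 2 h in Rad21-/- cells, at -1.24 (-1.74 to -0.74).

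Transcripts known as targets of tristetraprolin or Regnase-1 were followed with 14 cytokine and regulator genes. They reached 100 UMIs through the LPS samples and 4 of those tested had no UMI in untreated wild-type cells, so their direction against untreated cells was set by the minimum and is not counted. In wild-type cells Tnf went from 9.68 CPM to 2927 CPM and then 747 CPM, Cxcl1 from 0 to 2276 and 458 CPM, Cxcl2 from 11.5 to 4860 and 1658 CPM, Nfkbiz from 8.98 to 649 and 110 CPM, and Csf2 from 0 to 44.2 and 1.13 CPM. These 5 were lower at 8 h than at 2 h. A second set was higher at 8 h than at 2 h, with Il1b at 0, 436 and 1324 CPM, Il6 at 1.24, 36.9 and 252 CPM, Ptgs2 at 0, 99.0 and 648 CPM and Csf3 at 0, 1.18 and 83.4 CPM. Il10 (28.1, 67.3 and 96.2 CPM), Il12b (3.43, 83.4 and 147.8 CPM), Cxcl3 (4.31, 255 and 170.5 CPM) and Ier3 (15.3, 193 and 311 CPM) moved by less than 2-fold between 2 h and 8 h, and Nfkbid (5.22, 34.9 and 3.39 CPM) had too few UMIs.

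The same transcripts in Rad21-/- cells did not move as a block. At 2 h 6 of 12 were lower and 1 was higher than in wild-type cells, where 4.91% and 2.37% of all genes were. Their median log2 ratio was -0.71 against 0.03 for all genes. The minimum counts UMIs over both samples, so a gene could reach it through 1 genotype alone. Csf2 was at 44.2 CPM in wild-type and 7.90 CPM in Rad21-/- cells. Tnf was at -1.29, Cxcl2 at -1.35, Il12b at -1.16, Ptgs2 at -1.77, Cxcl3 at -2.33 and Csf2 at -2.37, while Nfkbid was at 1.27. At 8 h 3 of 12 were lower, Il6 at -2.31, Ptgs2 at -2.77 and Csf3 at -4.05, and none was higher. Of all genes 5.56% were lower and 5.89% higher. The median of the list was -0.50 against 0.19 for all genes. Csf3 was at 83.4 CPM in wild-type and 4.60 CPM in Rad21-/- cells. Tnf at 0.04 (769 against 747 CPM), Cxcl2 at -0.02 and Il1b at 0.33 were near their wild-type levels at 8 h, and Cxcl1 was at 0.93. A link of these levels to that of Zfp36 was not tested. From 2 h to 8 h in Rad21-/- cells 5 of 12 were higher and 3 lower, against 4 and 5 of 13 in wild-type cells. Of all genes 5.66% were higher and 4.25% lower in Rad21-/- cells, and 6.88% and 9.75% in wild-type cells. Cxcl2 was at -1.55 in wild-type and -0.22 in Rad21-/- cells over this interval, and Tnf at -1.97 and -0.64.

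The genes most like each member over the 6 samples were found by Pearson correlation of log2(mean CPM + 1) among 4057 genes with at least 500 UMIs, as a description over 6 points that share libraries. Dusp1 (r = 0.99), Mdm2 and Pim1 were closest to Zfp36. Dyrk2 (r = 1.00), Nfkbia, the NF-kappaB inhibitor, and Gm15776 were closest to Zc3h12a, and Nfkbia was at 113.7, 2237 and 1574 CPM in wild-type and at 93, 1839 and 1122 CPM in Rad21-/- cells. Cdkn1a (r = 0.98), Ppp1r15a and Gdf15, all genes of stress responses, were closest to Noct. Slc38a2, an amino acid transporter, and Rplp0 were among those closest to Zfp36l1, Naa38, Rpn1 and Ctbp1 to Zfp36l2, and Man1a, 1110004F10Rik and RP23-109C11.1 to Elavl1. Between members the correlation was 0.94 for Zfp36 with Noct, 0.90 for Zfp36 with Zc3h12a, 0.79 for Zfp36l1 with Zfp36l2, -0.08 for Zfp36 with Zfp36l1 and -0.63 for Zfp36 with Zfp36l2.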

How the data were processed

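The authors mapped MARS-seq reads to GRCm38.p4, the build named in the submitters' processing notes, removed wells of poor quality and collapsed reads by UMI, and the deposited matrix gives raw UMI counts of each gene in each cell. Every cell was assigned to 1 of 6 samples and to a library pool by its name, and no column was left unused (0). From the deposited counts, CPM per cell, means over cells, log2 ratios with 1 UMI added, shares with exact Clopper-Pearson intervals, differences of shares with Newcombe intervals and mean CPM with gamma intervals were computed in Python 3.11.15 (scipy 1.17.1, pandas 2.3.3, numpy 2.4.6; plots by matplotlib 3.10.9). All are 95% intervals. PCR duplicates were removed by UMI, and intervals cover counting error only. With 1 sample per group no test was run, and no doublet caller was run on singly sorted cells. No cell or well name occurred in more than 1 sample.

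The members and the gene lists were chosen with earlier results of these data known. Named are all members, Rad21, Mapk14, Mapkapk2, Dusp1, target genes, genes of the decay and p38 lists past 2-fold, and the 3 genes most like each member, of which 1 is not reported here. Alternatives were thinning to 3800 or 5500 UMIs, leaving out wells above 25000 UMIs, summed UMIs, median-of-ratios scaling, UMIs without CPM, no UMI minimum, 1.5-fold and 3-fold limits, equal weight per pool, at least 2 UMIs for a positive cell and leaving out each pool. Entering target genes without UMIs at a floor of 3 was added after the data were seen and changed no count of calls. The promoter motifs were chosen after the values were known. Promoter windows and gene positions are from RefSeq on GRCm38.p6. Steps were tested on simulated data.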

Additional observations from a re-analysis of the deposited data

Results flagged for a closer look

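Zfp36l1 was flagged because its log2 ratio against untreated cells had opposite signs at the 2 times of LPS in both genotypes, each beyond counting error. It was 1.02 at 2 h and -2.77 at 8 h in wild-type cells, and 0.92 at 2 h and -1.23 at 8 h in Rad21-/- cells. The values at 8 h rest on 36 and 77 UMIs over both samples, and the difference between the times was not tested. The wild-type ratio at 2 h was 0.65 and 0.23 after thinning to 3800 and 5500 UMIs, and that of Rad21-/- cells fell as low as 0.30. At 2 h the thinned share of positive cells differed by 2.58 points (-3.59 to 9.06) in wild-type and 5.32 points (-1.14 to 12.4) in Rad21-/- cells.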

How the results depend on the processing

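The calls of Zfp36 and Zc3h12a at 2 h and 8 h against untreated cells kept their direction under every alternative in both genotypes, and that of Zfp36 between genotypes at 8 h did so too. The direction of the calls against untreated cells had been set by the UMI minimum. Without a minimum of UMIs, 2 members were lower at 8 h in wild-type cells than without LPS, 1 was lower at 8 h in Rad21-/- cells and 1 was lower in untreated Rad21-/- against wild-type cells, and at 8 h between genotypes 2 were higher and 2 lower. In mean UMIs per cell, where wells above 25000 UMIs weigh most, 6 members were higher at 2 h in wild-type cells, 5 were lower at 8 h against 2 h in wild-type cells, 3 were lower in Rad21-/- than in wild-type cells at 2 h, and 1, Elavl1, was higher at 8 h. At a limit of 1.5-fold, 1 member each was lower at 2 h and at 8 h against untreated cells in Rad21-/- cells, and at 2 h between genotypes 1 was higher and 2 were lower. Thinning to 5500 UMIs and equal weight per pool each gave 1 member, Zfp36l2, as lower at 8 h in Rad21-/- cells. Summed UMIs gave 1, Noct, as lower at 2 h between genotypes. Leaving out single pools moved these counts between 0 and 1 for lower at 8 h in Rad21-/- cells (Zfp36l2, without the pool in which it was highest, 42.6 CPM), for higher in Rad21-/- than in wild-type cells at 2 h (Zfp36l1, without the pool in which its wild-type level was highest, 75.7 CPM) and for lower in the same comparison (Noct, without the pool of at least 10 cells in which its Rad21-/- level was highest, 50.4 CPM). The share of Zfp36l2 in Rad21-/- cells at 2 h against untreated, -7.47 points, turned to 0.60 when at least 2 UMIs were asked of a positive cell. Of 1086 alternative values of log2 ratios, 28 lay outside the counting interval of the main value. No ratio of at least 2-fold with an interval clear of 0 changed direction, whether or not it had 100 UMIs. Smaller ratios did, such as that of Zfp36l2 at 2 h in wild-type cells, from -0.43 to 1.24. The causes were not tested. No paired analysis was possible because each group is 1 sample. Depth limits Zfp36l1, Zfp36l2 and Noct most, since several of their comparisons rest on fewer than 100 UMIs.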
